A study of Mus musculus with 34 samples.

Results

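The genes described here move iron into cells, store it, and let it out again. They are 10 mouse genes taken by name: Tfrc, Tfr2, Trf, Slc11a2, Slc25a37, Steap3, Slc40a1, Hamp, Fth1 and Ftl1. Their probe sets were read in whole fetal livers of 8 genotypes that lack different combinations of the retinoblastoma family genes Rb1, p107 (Rbl1) and p130 (Rbl2). Of the 10 genes, 8 had a probe set annotated to 1 symbol and could be tested, among 12723 genes tested of 18193 with such a probe set. The probe sets of Trf and Ftl1 each carried several symbols, so they are described but not counted.

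Iron reaches red cell precursors bound to transferrin, the blood carrier encoded by Trf. The transferrin receptor, Tfrc, takes the complex into endosomes, where the reductase Steap3 and the transporter Slc11a2 (DMT1) pass iron to the cytosol, and mitoferrin, Slc25a37, brings it into mitochondria for heme. Spare iron is held in ferritin, built from the Fth1 and Ftl1 chains. Ferroportin, Slc40a1, is the exporter, and hepcidin, the hepatocyte hormone encoded by Hamp, removes it from the cell surface. Tfr2, a second transferrin receptor, is made by hepatocytes, where it takes part in hepcidin control, and by erythroid precursors. The fetal liver at this age is at once the main site of red cell production and a growing liver, so both sets of genes are at work in it.

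Total RNA of freshly isolated, unsorted and untreated livers was hybridised to 34 one-colour Affymetrix arrays. The labels give embryonic day 14.5 for every array, and the series design gives a span that starts a day earlier. The groups were wild type (2 arrays), p107 KO (1 array), p130 KO (3 arrays), p107;p130 DKO (6 arrays), Rb1 KO (2 arrays), Rb1;p107 DKO (5 arrays), Rb1;p130 DKO (9 arrays) and Rb1;p107;p130 TKO (6 arrays). KO, DKO and TKO stand for loss of 1, 2 and 3 of the genes. The labels used here name no Cre or promoter, and do not say which arrays came from separate fetuses, so the tests see no more than the variation among these arrays, which may be technical. The single p107 KO array enters the fits but was not compared on its own. In whole tissue, fewer cells of a type and less RNA per cell cannot be told apart.

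The targeted genes were read first. Rb1 signal was 5208 to 9085 on the 12 arrays that carry the gene and 756 to 1746 on the 22 that lack it, and Rbl1 was 1185 to 2713 against 43.9 to 139. The Rbl2 ranges overlapped, 246 to 481 where carried and 105 to 265 where deleted. Alb and Afp (hepatocyte), Slc4a1 and Klf1 (erythroid) and Csf1r (macrophage) were at a signal of 1941 or more on every array. The macrophage genes Adgre1 and C1qa were weaker, at 506 to 1776 and 360 to 1236. The Hba-a1 probe set of 1 symbol, a hemoglobin chain that should be abundant here, read only 3.73 to 99.6. Other alpha globin probe sets carry several symbols. Clustering by the ratios between probe sets of the same gene, with the iron genes left out, split the arrays into 3 groups of 15, 10 and 9. No label names this split, which comes from the values themselves. They were spread unevenly: 4 of 5 Rb1;p107 DKO arrays lay in group 2, and both Rb1 KO arrays in group 1. The main tests leave array group out, and values with array group as a block are given beside them. Xist marked 17 arrays and Y-linked genes the other 17, with all 3 p130 KO arrays in the first set and both Rb1 KO arrays in the second.

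Promoter windows of 6 of the 10 genes were found in the RefSeq table (GRCm38.p6), and the 250 bases before the start are printed for the receptors, for Steap3 and for Hamp, the genes whose values the results turn on. Where a gene had more than 1 start listed, the most upstream was taken, which may not be its main start. Capitals mark matches, on either strand, to an E2F-type motif (TTTGGCGC, TTTGCCGC, TTTCGCGC or TTTCCCGC), since E2F factors are the partners of the retinoblastoma family. They also mark a GATA-type motif (the letters AGATAA, the letters TGATAA, the letters AGATAG or the letters TGATAG), which GATA1 binds in red cell precursors, and GGCGCC, a BMP-responsive motif.
Tfrc, chr16:32608646-32608895, plus strand: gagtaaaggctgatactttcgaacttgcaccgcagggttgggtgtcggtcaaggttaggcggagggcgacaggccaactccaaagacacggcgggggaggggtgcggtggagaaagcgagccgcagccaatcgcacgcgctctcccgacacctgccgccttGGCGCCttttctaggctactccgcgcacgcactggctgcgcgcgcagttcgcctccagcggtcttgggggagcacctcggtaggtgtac
Tfr2, chr5:137569590-137569839, plus strand: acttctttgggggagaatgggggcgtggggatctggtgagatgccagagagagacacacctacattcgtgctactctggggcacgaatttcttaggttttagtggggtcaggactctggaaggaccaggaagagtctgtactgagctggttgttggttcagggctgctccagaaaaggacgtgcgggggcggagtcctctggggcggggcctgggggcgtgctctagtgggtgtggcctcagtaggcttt
Steap3, chr1:120271081-120271330, minus strand: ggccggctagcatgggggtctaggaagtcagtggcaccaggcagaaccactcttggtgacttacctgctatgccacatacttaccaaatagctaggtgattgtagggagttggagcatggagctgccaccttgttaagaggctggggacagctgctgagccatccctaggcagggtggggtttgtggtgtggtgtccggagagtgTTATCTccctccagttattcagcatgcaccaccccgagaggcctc
Hamp, chr7:30944030-30944279, minus strand: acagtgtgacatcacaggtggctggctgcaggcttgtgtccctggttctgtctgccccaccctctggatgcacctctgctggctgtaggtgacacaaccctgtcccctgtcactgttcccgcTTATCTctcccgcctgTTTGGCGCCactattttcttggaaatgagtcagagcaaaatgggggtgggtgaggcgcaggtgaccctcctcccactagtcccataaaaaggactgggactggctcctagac
The E2F-type letters were in 1 of the 6 windows, that of Hamp, 112 bases before the start, where they overlap GGCGCC at 109. Over all 32851 windows of this length, 1.86% held an E2F-type match. GATA-type letters were in the Hamp and Steap3 windows and in 26.5% of all windows. GGCGCC was in those of Hamp and Tfrc and in 9.59% of all. The windows of Tfr2, Fth1 and Ftl1 held none of these letters. A match is a description of the letters and not evidence of a site.

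The 8 testable iron genes showed no change that passed the test when array group was left out of the fit. In limma fits on log2(signal + 32) over all arrays, 0 of 8 passed a Benjamini-Hochberg adjusted p of 0.05 in any of 10 comparisons, where 8 of the 80 single values had an unadjusted p under 0.05, against 7.23% of all such values over the genes tested. The 95% interval lay within a 2-fold change in either direction for 73 of the 80 values. A p that misses the threshold does not show that a gene did not differ, and these intervals give the sizes that remain possible.

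The comparisons differed in how much else was called. Rb1 loss over all backgrounds, a term fitted over all genotypes, called 2.26% of all genes tested and 0 of the 8 iron genes, whose median log2 change was 0.03 against -0.02 for all genes. Loss of p107 called 1.14% of all genes and 0 of the 8, with a median of -0.03 against -0.0027. Loss of p130 called 0.0157% of all and 0 of the 8, with a median of -0.09 against 0.03.

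Of the paired genotypes, TKO against p107;p130 DKO called 0.377% of all genes, and Rb1;p130 DKO against p130 KO called 0.118%. TKO against Rb1;p130 DKO called 0.0236%, TKO against Rb1;p107 DKO 0.00786%, TKO against wild type 0.0786%, and Rb1 KO against wild type 0.00786%. The difference in the Rb1 effect with and without p107, between TKO against p107;p130 DKO and Rb1;p130 DKO against p130 KO, called 0% of genes, where 209 genes had an unadjusted p under 0.05. The iron genes called numbered 0 of 8 in each of these, a count near the background. Several of these comparisons share arrays, among them those of the TKO.

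With array group as a block, 3 of the 80 values were called, 11 had an unadjusted p under 0.05 (against 7.69% over all genes), and 79 of the 80 intervals lay within 2-fold. All 3 concerned the transferrin receptors. For Rb1 loss, 4.40% of all genes and 1 of the 8 were called, and for p107 loss 0.660% and 1 of the 8. For Rb1;p130 DKO against p130 KO, 0.393% and 1 of the 8 were called. In the other comparisons 0 of the 8 were called, where the background was 0.0157% for p130 loss and 0.865% for TKO against p107;p130 DKO. It was 0.134% for TKO against Rb1;p130 DKO, 0.0157% for TKO against Rb1;p107 DKO and 0.228% for TKO against wild type. It was 0.0157% for Rb1 KO against wild type and 0% for the difference in the Rb1 effect, where 389 genes had an unadjusted p under 0.05. With the block all 8 iron genes were lower with p107 loss, at a median of -0.17 against 0.02 for all genes. Of the 8, 4 had a limma unadjusted p under 0.05, beside 12.5% of all genes. Without the block 6 were lower and 2 higher. The blocked medians were 0.04 against -0.02 for Rb1 loss and 0.03 against -0.0014 for p130 loss.

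**Figure D1:**
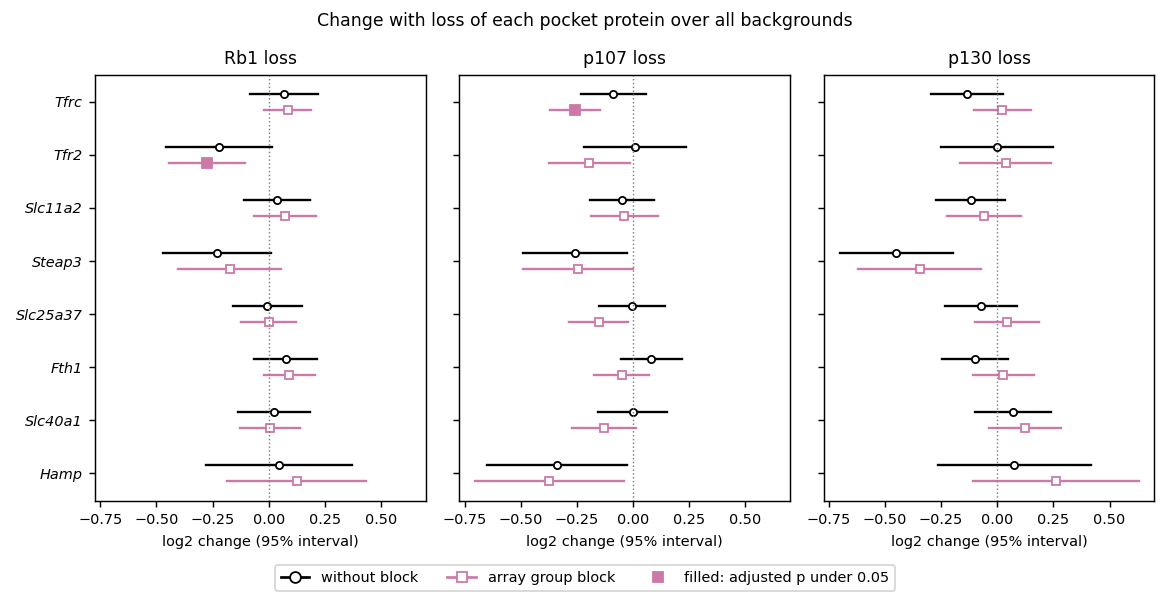
Log2 change with loss of Rb1, p107 or p130 over all backgrounds for the 8 testable iron genes, with 95% intervals, from the fit without a block (circles) and with array group as a block (squares). Filled symbols have an adjusted p under 0.05: Tfr2 for Rb1 loss (-0.28) and Tfrc for p107 loss (-0.26), both with the block.

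Tfrc, the receptor that brings transferrin iron into dividing red cell precursors, had a strong signal on every array, at or above percentile 99.16. Its brightest probe set read 17661 and 25939 in wild type, 20226 in p107 KO, and 17738, 22053 and 21839 in p130 KO. It read 18596 and 23228 in Rb1 KO and 16888, 22723, 22992, 24886 and 25262 in Rb1;p107 DKO. All these groups overlap, and the lowest Rb1;p107 DKO array stood apart from the other 4. The lowest, median and highest arrays were 14649, 18141 and 24072 in p107;p130 DKO, 18413, 20783 and 24098 in Rb1;p130 DKO, and 16206, 18395 and 24453 in TKO. The 8 genotype means ran from 18621 ± 3316 (SD, n = 6) in p107;p130 DKO to 22550.0 ± 3358 (SD, n = 5) in Rb1;p107 DKO, closer together than the lowest and highest p107;p130 DKO arrays.

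Without a block, the log2 change of Tfrc with p107 loss was -0.09 ± 0.07 (SE, limma adjusted p = 0.556), and 12 of the 18 arrays without p107 lay on the lower side. With array group as a block it fell with p107 loss, at -0.26 ± 0.06 (limma adjusted p = 0.0155), 1.20-fold. Within the array groups the same term was -0.27 ± 0.09 in group 1, -0.26 ± 0.16 in group 2 and -0.25 ± 0.10 in group 3. The values were close to each other, although group 2 held only 1 array that carries p107. The call held on leaving out each array in turn (adjusted p 0.00589 to 0.0481), and was lost with quantile normalization (-0.21, 0.0753) and with the mean of the 3 probe sets (-0.24, 0.274). In the same blocked fit the erythroid markers had a median change of -0.12 (0 of 13 called, 3 with an unadjusted p under 0.05) and the hepatocyte markers -0.11 (0 of 14 called, 4 such). Tfrc went with the erythroid level in array groups 1 and 2 (r = 0.771 and 0.861, permutation p = 0.00086 and 0.00199, adjusted 0.00559 and 0.0517) and had r = 0.406 in group 3 (exact permutation p = 0.282, adjusted 0.585). Its rho was 0.779, 0.879 and 0.333 (permutation p = 0.0011, 0.00156 and exact 0.385, adjusted 0.00953, 0.0811 and 0.771), and r without the 2 farthest arrays was 0.770, 0.725 and 0.675. With hepatocyte markers Tfrc gave r = 0.860, 0.432 and -0.648 in groups 1 to 3 (permutation p = 7e-05, 0.215 and exact 0.058, adjusted 0.00182, 0.559 and 0.215). The rho with these was 0.839, 0.527 and -0.717 (permutation p = 0.00019, 0.122 and exact 0.0369, adjusted 0.00312, 0.589 and 0.160). The part of cell makeup in the Tfrc value was not tested. The other 2 Tfrc probe sets were also lower with p107 loss in the fits of each probe set, at -0.26 ± 0.12 and -0.48 ± 0.23 without a block and -0.29 ± 0.10 and -0.17 ± 0.15 with it. Neither passed the test (limma adjusted p 0.291 and 0.317 without, 0.226 and 0.747 with).

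Rb1 loss gave a different picture by probe set. With each probe set fitted on its own under the block, it called 956 of all 28005 probe sets. The brightest Tfrc probe set was 0.08 ± 0.05 higher with the block and did not pass the test. The second one, 1422966_a_at, rose by 0.38 ± 0.09 with the block (limma adjusted p = 0.0132 over 28005 probe sets), against 0.28 ± 0.12 without it (0.396). Its mean signal was 9370 ± 2875 (SD, n = 2) in Rb1 KO against 6731.0 ± 290.4 (SD, n = 2) in wild type, and 7473 ± 2344 (SD, n = 9) in Rb1;p130 DKO against 6999 ± 2701 (SD, n = 3) in p130 KO. The blocked change was 0.47 ± 0.26 in the first of these pairs and 0.16 ± 0.17 in the second (limma adjusted p = 0.9998 and 0.888). In TKO against p107;p130 DKO it was 0.47 ± 0.15 (0.198). The third probe set was 0.35 ± 0.14 higher with Rb1 loss and the block (0.200). This value was named after its result was seen.

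Tfr2, the receptor of hepatocytes and early erythroid cells, varied more. Its brightest probe set read 3578 and 4194 in wild type, 3245 in p107 KO, and 4742, 3374 and 5756 in p130 KO. It read 3028 and 2692 in Rb1 KO, and 2195, 3529, 3831, 4074 and 3454 in Rb1;p107 DKO. Both Rb1 KO arrays were below both wild type arrays and all 3 p130 KO arrays. With 2 arrays against 2, Rb1 KO and wild type overlapped for only 5 of the 8 iron genes. Both Rb1 KO arrays lay in array group 1, where the Tfr2 mean was 2891, against 3887 and 3879 in groups 2 and 3. The lowest, median and highest arrays were 2260, 3321 and 5200 in p107;p130 DKO, 2143, 2812 and 4826 in Rb1;p130 DKO, and 2805, 3337 and 4250.2 in TKO. The highest mean was that of p130 KO, 4624 ± 1195.5 (SD, n = 3), and the lowest that of Rb1 KO, 2860.5 ± 237.5 (SD, n = 2). For Rb1 KO against wild type the change was -0.44 ± 0.31 without a block and -0.13 ± 0.21 with array group as a block, without a call in either. In the second probe set these 2 groups overlapped, with 1994 and 2880 in Rb1 KO and 2026 and 2416 in wild type.

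Without a block, the log2 change of Tfr2 in Rb1;p130 DKO against p130 KO was -0.59 ± 0.21 (limma adjusted p = 0.656). Of the 9 DKO arrays, 8 lay below the p130 KO mean. With Rb1 loss over all backgrounds its change was -0.22 ± 0.12 (adjusted p = 0.493). With the array group block Tfr2 fell in both, at -0.64 ± 0.13 (limma adjusted p = 0.0139) and -0.28 ± 0.08 (0.0474). Within the array groups the Rb1 term was -0.43 ± 0.13, 0.01 ± 0.16 and -0.39 ± 0.20, so group 2 did not show it. The Rb1 loss call was lost on leaving out any 1 of 21 arrays (adjusted p 0.0196 to 0.144), and the Rb1;p130 DKO call without p130 KO array 1 or 3 (highest 0.162). The Rb1 loss call was also lost with quantile normalization (0.0519, with the change at -0.26), k-means array groups (-0.23, 0.134) and the mean of both probe sets (-0.11, 0.514), and the other call with that mean (-0.40, 0.224). With every probe set fitted on its own under the block, the Rb1 loss call was lost too (-0.28, 0.0566). The second Tfr2 probe set, 1425381_a_at, gave 0.05 ± 0.08 for Rb1 loss and -0.16 ± 0.13 for Rb1;p130 DKO against p130 KO with the block. The calls thus rest on 1 of 2 probe sets, and that one carries the suffix that Affymetrix gives to probes shared with other sequences. The difference in the Rb1 effect on Tfr2 between backgrounds was 0.61 ± 0.28 without the block and 0.50 ± 0.18 with it, and did not pass the test in either (limma adjusted p = 1.0 in both).

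The transferrin probe set, annotated to Trf and Srprb together, read 17053 to 30388. Its genotype means lay between 20502 ± 3561 (SD, n = 6) in p107;p130 DKO and 24583 ± 3610.0 (SD, n = 3) in p130 KO. Its change was 0.11 ± 0.07 with Rb1 loss, -0.10 ± 0.07 with p107 loss and 0.01 ± 0.08 with p130 loss, all without a call, and 0.09 ± 0.07, -0.14 ± 0.08 and -0.0062 ± 0.09 with the block. Since 2 genes share the annotation, the values cannot be given to Trf alone.

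**Figure D2:**
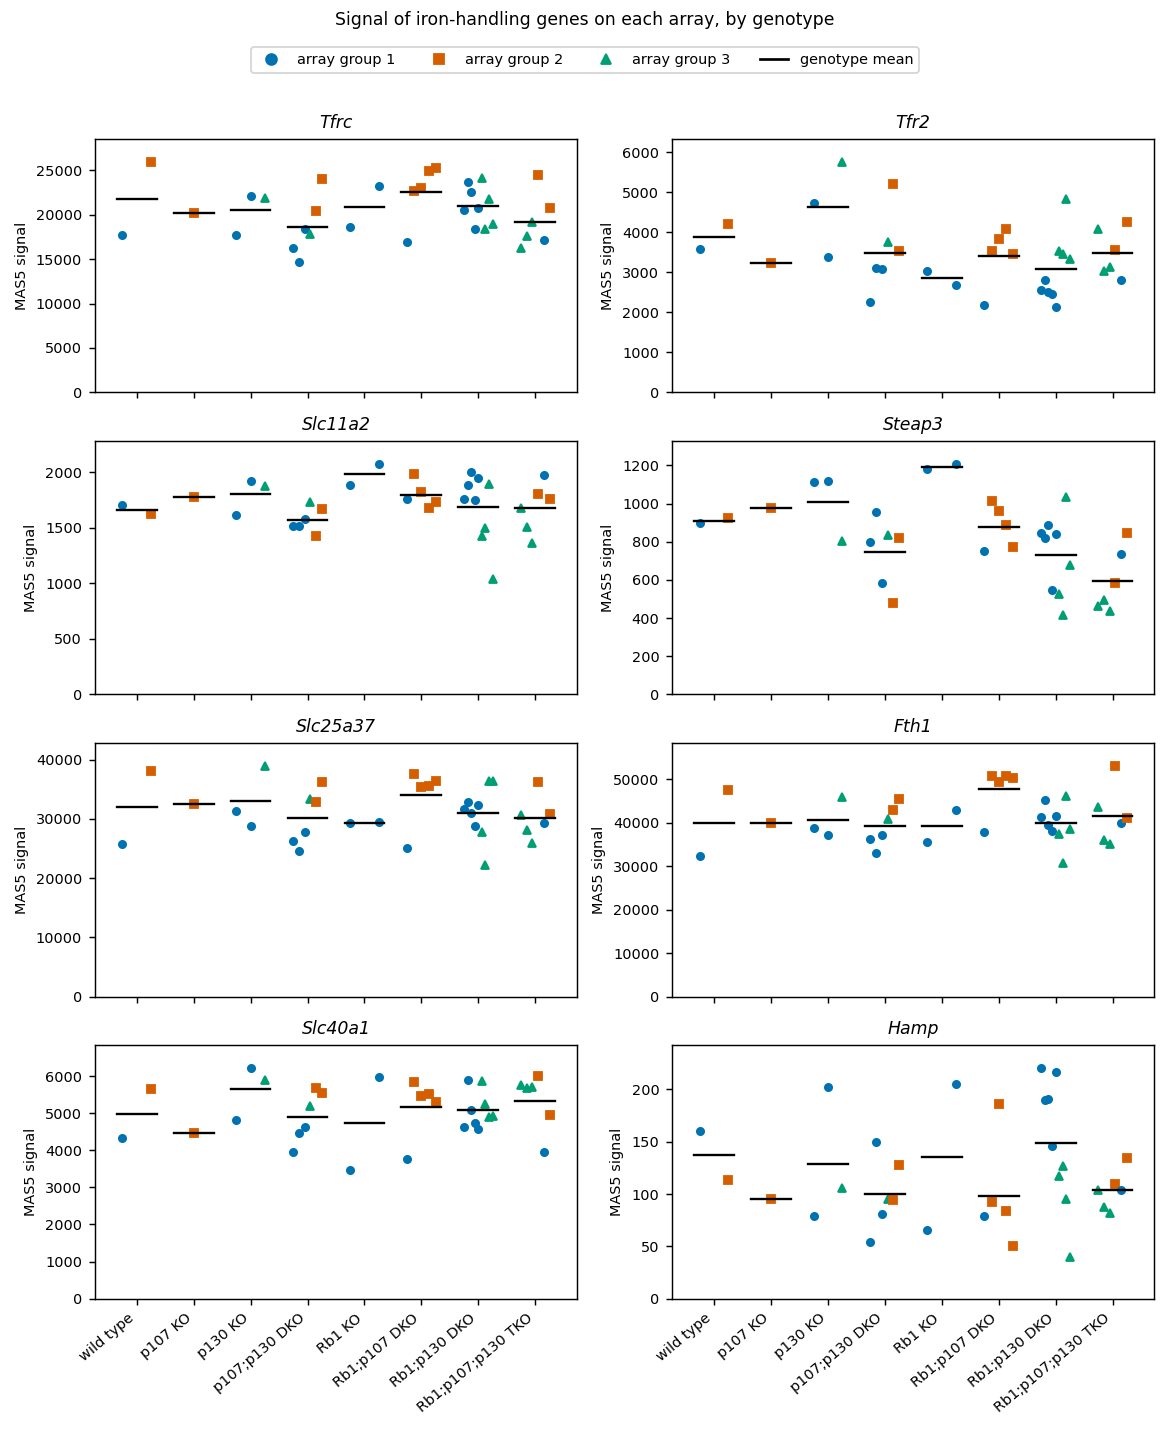
MAS5 signal of the brightest probe set of each testable iron gene on each of 34 arrays, by genotype, on linear axes that start at 0. Bars are genotype means, and symbols show the 3 array groups. Most genotypes overlap, the Rb1 KO arrays are the highest for Steap3 (1181 and 1207), and Rb1;p107 DKO array 1 is the only circle of its group, low for Tfrc (16888) and Fth1 (37763).

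Steap3, the endosomal ferrireductase, had the largest share of its variance between genotypes of the 8, 47.0%, against a median of 22.3% over all genes tested. Its brightest probe set read 896 and 926 in wild type, 974 in p107 KO, and 1111, 1117 and 805 in p130 KO. It read 1181 and 1207 in Rb1 KO and 751, 1012, 964, 887 and 772 in Rb1;p107 DKO. The Rb1 KO arrays were the 2 highest of all 34. The lowest, median and highest arrays were 477, 809 and 954.7 in p107;p130 DKO, 414, 819 and 1035 in Rb1;p130 DKO, and 435, 539 and 848 in TKO. The TKO mean, 593 ± 165 (SD, n = 6), was the lowest, and every TKO array was below both wild type arrays. In the other 2 probe sets TKO and wild type overlapped, at 263 to 773 against 414 and 917, and at 245 to 551 against 311 and 631. There the highest p130 KO arrays, 1242 and 933, were above the highest Rb1 KO arrays, 994 and 656.

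The largest additive term of the brightest Steap3 probe set was that of p130 loss, at -0.45 ± 0.12 (limma adjusted p = 0.292), or 1.37-fold lower. It was -0.34 ± 0.13 with the block (adjusted p = 0.999). The terms for p107 loss, -0.26 ± 0.11, and Rb1 loss, -0.23 ± 0.12, pointed the same way without passing (0.238 and 0.476), and were -0.24 ± 0.12 and -0.17 ± 0.11 with the block. TKO against Rb1;p107 DKO gave -0.57 ± 0.19 (0.660) and TKO against wild type -0.63 ± 0.26 (0.939), with an interval from -1.17 to -0.10. With the block these were -0.42 ± 0.20 and -0.48 ± 0.25, the latter with an interval from -0.99 to 0.04. The other 2 probe sets gave -0.30 ± 0.20 and -0.20 ± 0.17 for p130 loss. All 3 were lower, with the brightest the most precise. For TKO against Rb1;p107 DKO with the block, the other 2 gave -0.15 ± 0.23 and -0.04 ± 0.21, beside -0.42 for the brightest.

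Slc11a2, the transporter that moves iron out of the endosome, read 1037 to 2076 over all arrays. Genotype means ran from 1575 ± 112 (SD, n = 6) in p107;p130 DKO to 1984 ± 131 (SD, n = 2) in Rb1 KO. Its changes were 0.04 ± 0.07 with Rb1 loss, -0.05 ± 0.07 with p107 loss and -0.12 ± 0.08 with p130 loss. The 3 intervals together ran from -0.27 to 0.19. With the block the values were 0.07 ± 0.07, -0.04 ± 0.07 and -0.06 ± 0.08.

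Slc25a37, the mitochondrial iron importer of red cell precursors, read 22287 to 38918, with means between 29360.4 ± 192.0 (SD, n = 2) in Rb1 KO and 34038 ± 5067 (SD, n = 5) in Rb1;p107 DKO. Rb1 loss gave -0.01 ± 0.08 with an interval from -0.16 to 0.15. The gene lies 3.91 Mb from Rb1 on chromosome 14. With p107 loss the value was -0.0032 without the block and -0.15 ± 0.06 with it (adjusted p = 0.302).

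Fth1, the heavy ferritin chain that oxidises iron for storage, lay at or above percentile 99.8 on every array and read 30774 to 52993. Its means ran from 39163 ± 5272 (SD, n = 2) in Rb1 KO to 47718 ± 5596 (SD, n = 5) in Rb1;p107 DKO. Rb1, p107 and p130 loss gave 0.08 ± 0.07, 0.08 ± 0.07 and -0.10 ± 0.07. With the block they gave 0.09 ± 0.06, -0.05 ± 0.06 and 0.03 ± 0.07, so the last 2 turned sign, without a call in either fit. Of its variance, 43.8% lay between array groups and 23.1% between genotypes. The Ftl1 probe sets carry the symbol of a pseudogene as well, and the brightest read 18986 to 27796. With p130 loss it gave 0.12 ± 0.05 (adjusted p = 0.455 over probe sets).

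Slc40a1, the exporter, read 3483 to 6217, and its means ran from 4479 in the p107 KO array to 5646 ± 739 (SD, n = 3) in p130 KO. Its 3 loss terms were 0.02 ± 0.08, -0.0011 ± 0.08 and 0.07 ± 0.08, and with the block 0.0063 ± 0.07, -0.13 ± 0.07 and 0.12 ± 0.08. Hamp, its hormonal brake, was low, at 40.1 to 220.3, and reached 100 on 19 of 34 arrays. It read 160 and 114 in wild type, 94.8 in p107 KO, 79.4, 202 and 106 in p130 KO, and 66.0 and 205 in Rb1 KO. In Rb1;p107 DKO it read 78.9, 92.4, 186, 83.4 and 50.1. Arrays of 1 genotype lay as far apart as those of different genotypes. The lowest, median and highest arrays were 54.4, 94.5 and 149.5 in p107;p130 DKO, 40.1, 146 and 220.3 in Rb1;p130 DKO, and 82.1, 104 and 135 in TKO. With p107 loss Hamp gave -0.34 ± 0.15 (limma unadjusted p = 0.0325, adjusted p = 0.247), and its second probe set -0.15 ± 0.15. With the block these were -0.37 ± 0.16 (0.327) and -0.16 ± 0.17. The brightest Hamp probe set, 1419197_x_at, carries the same suffix for shared probes as that of Tfr2, and the second does not. At such signals the log2(signal + 32) scale understates changes.

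**Figure D3:**
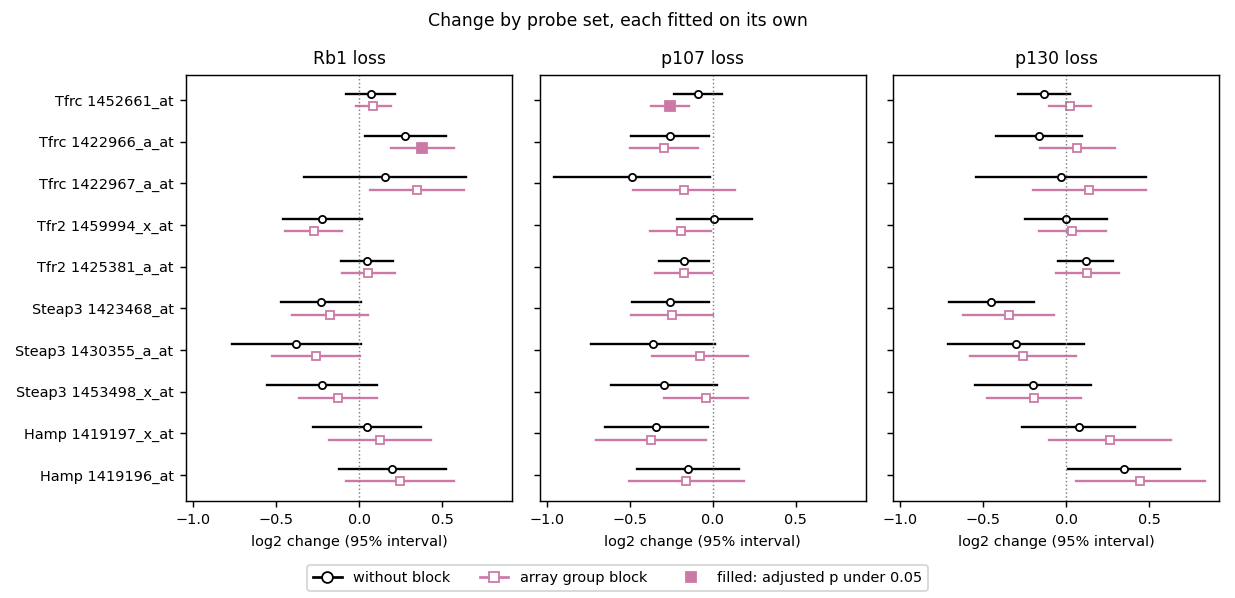
Log2 change with loss of each gene for every probe set of Tfrc, Tfr2, Steap3 and Hamp, with 95% intervals, without (circles) and with (squares) the array group block. Filled symbols have an adjusted p under 0.05 over 28005 probe sets: Tfrc 1422966_a_at for Rb1 loss (0.38) and Tfrc 1452661_at for p107 loss (-0.26).

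Around these genes, a list of 40 further iron genes was read, of which 36 could be tested. It held regulators of iron mRNAs, hepcidin control, other transporters and oxidases, endosome traffic, heme recycling and iron-sulfur genes. None passed the test in any comparison without the block, where 10 of 36 had an unadjusted p under 0.05 for p107 loss (5 of them higher), beside 17% of all genes, and 0 to 4 in each other comparison. The nearest was Cp, ceruloplasmin, the plasma ferroxidase, with p107 loss at -0.81 ± 0.22 (limma adjusted p = 0.0542). With the array group block Cp fell by 0.98 ± 0.20 (0.0106), the 1 call of the list. In that fit 12 of 36 had an unadjusted p under 0.05 for p107 loss (6 of them higher), beside 12.5% of all genes. The count was 8 of 36 for TKO against Rb1;p130 DKO, beside 8.88%, and 0 to 3 in each other comparison. Cp read 360.7 and 396.6 in wild type and 396 in p107 KO, so the single p107 KO array was as high as wild type. The lowest and highest arrays were 188.2 and 638.4 in Rb1;p107 DKO, 78.9 and 297.5 in p107;p130 DKO and 57.2 and 336.2 in TKO. They were 204.5 and 545.6 in p130 KO, 312.4 and 865.4 in Rb1 KO and 136 and 836.5 in Rb1;p130 DKO, so the ranges with and without p107 overlapped. With p107 loss Heph, a ferroxidase kin of Cp, gave 0.46 ± 0.13 (0.0669) and Bmpr1a, a BMP receptor upstream of hepcidin, 0.41 ± 0.12 (0.0830).

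Cell type markers are given beside the Steap3 values. With p130 loss, the 13 testable erythroid markers had a median change of -0.13 and the 14 macrophage markers 0.18, with 0 called in either list, where 2 and 5 had an unadjusted p under 0.05. In TKO against Rb1;p107 DKO the erythroid median was -0.23, beside the Steap3 value of -0.57. With the array group block the erythroid median was 0.0002 for p130 loss (Steap3 -0.34) and -0.06 for TKO against Rb1;p107 DKO (Steap3 -0.42). The macrophage median was 0.19 for p130 loss with the block. The part of cell makeup in the Steap3 values was not tested.

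Across arrays, some iron genes went with the levels of cell type markers, often of more than 1 cell type. The arrays fall into groups, so correlations are given within each. Over the 15 arrays of group 1, Slc25a37 rose and fell with the mean log2 signal of the erythroid markers (Pearson r = 0.866, permutation p = 3e-05, Spearman rho = 0.846, p = 0.00012), and r was 0.800 without the 2 arrays farthest from the median. The adjusted p over 52 relations was 0.00156 for r and 0.00312 for rho. In groups 2 and 3 it was 0.775 and 0.754 (permutation p = 0.00858 and exact permutation p = 0.0205, adjusted 0.0715 and 0.120), with rho 0.721 and 0.683 (permutation p = 0.0236 and exact 0.0503, adjusted 0.307 and 0.201) and r 0.679 and 0.604 without the 2 farthest. Fth1 gave 0.783, 0.932 and 0.840 in groups 1 to 3 (permutation p = 0.00054, 0.00021 and exact 0.00459, adjusted 0.00468, 0.0109 and 0.0540). Its rho was 0.832, 0.830 and 0.850 (permutation p = 0.00021, 0.00445 and exact 0.00607, adjusted 0.00312, 0.116 and 0.0899), and r without the 2 farthest arrays was 0.838, 0.885 and 0.816. Steap3 gave r = 0.068, 0.033 and 0.845 with the erythroid level (permutation p = 0.811, 0.928 and exact 0.00519, adjusted 0.879, 0.965 and 0.054). Tfr2 gave -0.275, -0.074 and 0.886 (permutation p = 0.323, 0.838 and exact 0.00181, adjusted 0.454, 0.928 and 0.054). In group 3 r without the 2 farthest arrays was 0.760 for Steap3 and 0.579 for Tfr2.

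On the export side, Hamp went with hepatocyte markers in group 1 (r = 0.745, permutation p = 0.00198, adjusted 0.00936, rho = 0.736, p = 0.0026, adjusted 0.0150, r = 0.711 without the 2 farthest). In groups 2 and 3 its r was 0.508 and -0.112 (permutation p = 0.144 and exact 0.753). Slc40a1 went with macrophage markers in group 1 (r = 0.809, permutation p = 0.00034, adjusted 0.00447, rho = 0.696, p = 0.00497, adjusted 0.0215, r = 0.674 without the 2 farthest) and its r was 0.551 and 0.265 in groups 2 and 3 (permutation p = 0.0946 and exact 0.514). In group 1 Slc40a1 also went with hepatocyte markers (r = 0.773, permutation p = 0.00082, adjusted 0.00559, rho = 0.650, p = 0.0105, adjusted 0.0390, r = 0.766 without the 2 farthest). Hamp also went with macrophage markers there (r = 0.648, permutation p = 0.01, adjusted 0.0307, rho = 0.582, p = 0.0253, adjusted 0.0599, r = 0.527 without the 2 farthest). Fth1 and Slc25a37 gave r = 0.594 and 0.588 with hepatocyte markers (permutation p = 0.0201 and 0.0219, adjusted 0.0573 in both, rho = 0.625 and 0.629, p = 0.0149 and 0.0139, adjusted 0.0407 and 0.0402, r = 0.477 and 0.553 without the 2 farthest). The differences between array groups or between marker lists were not tested. These relations share the arrays and their scaling.

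**Figure D4:**
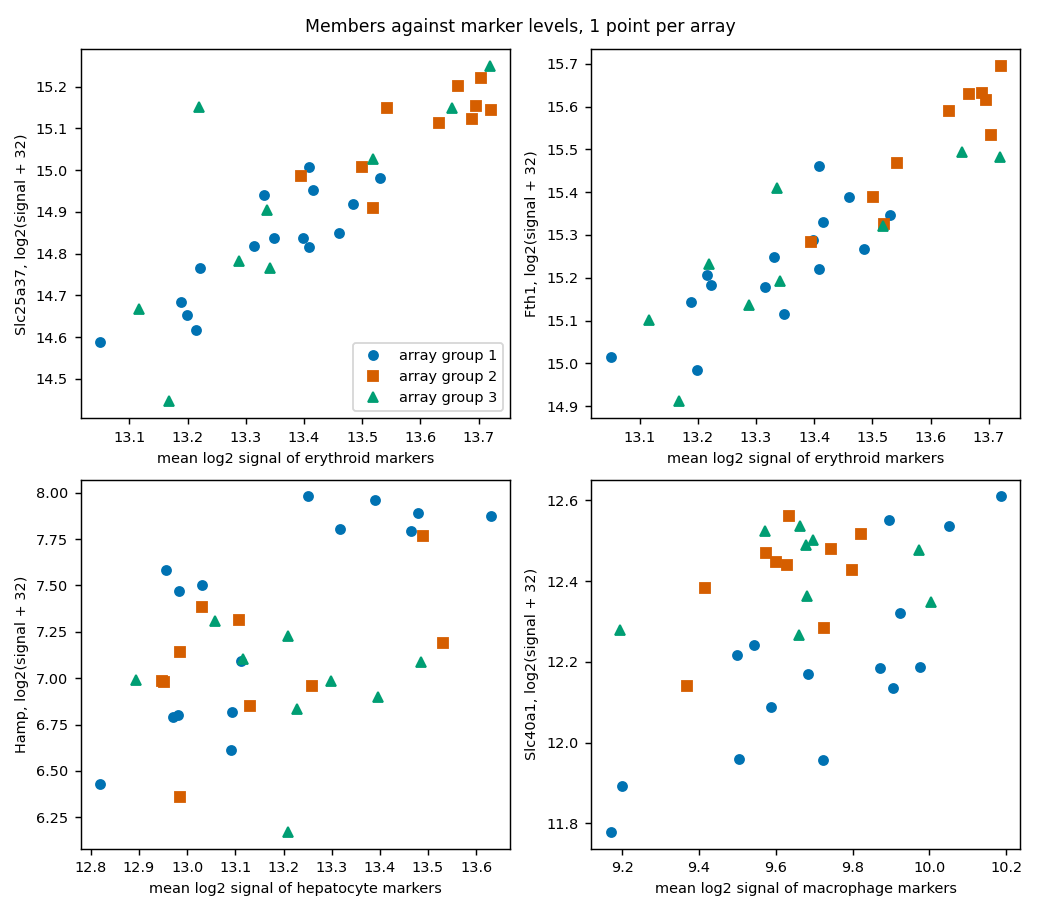
Log2(signal + 32) of Slc25a37, Fth1, Hamp and Slc40a1 on each array against the mean log2 signal of the erythroid, hepatocyte or macrophage markers, with symbols for the 3 array groups. Slc25a37 and Fth1 rise with the erythroid level in every array group, with r from 0.754 to 0.932 within groups, while Hamp does so with hepatocyte markers in group 1 (0.745).

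The genes most like each member over the 34 arrays, given as a description by Pearson r, were Fech (the last enzyme of heme synthesis) for Fth1 (0.94), Slc4a1 (the red cell anion exchanger) for Slc25a37 (0.91), and Cd47 for Tfrc (0.86). Hamp was most like Ahsg, a plasma protein of hepatocytes (0.80), and Slc40a1 most like Pgrmc1 (0.83). For Slc11a2 it was Grina (0.79), for Tfr2 Ech1 (0.79) and for Steap3 Ctsd (0.69). Over residuals from array group means the nearest gene stayed the same only for Hamp (Ahsg, 0.77). It was then Cox6a1 for Fth1 (0.91), Urod for Slc25a37 (0.88), Adam10 for Tfrc (0.84) and Xpo1 for Slc40a1 (0.86). For Slc11a2 it was Fhdc1 (0.81), for Tfr2 Selenbp1 (0.69) and for Steap3 Sdf4 (0.66).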

How the data were processed

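The authors deposited intensity values, linear MAS5 signals made in GCOS 1.4 per the submitters' processing notes, for 45037 probe sets on 34 arrays. Trimmed means of 495.4 to 497.7 show that the arrays had been scaled. Each array was set to a trimmed mean (2% off each end) of 500, then taken as log2(signal + 32). Of the probe sets, 34945 carried 1 symbol, 932 several and 9160 none. A gene was its brightest probe set, kept at a signal of 100 on 2 arrays. limma 3.58.1 in R 4.3.3 fitted 1 mean per genotype (7 comparisons) and additive terms for Rb1, p107 and p130, with eBayes trend, two-sided tests and Benjamini-Hochberg adjustment at 0.05. For arrays, their number limits the precision. Steps were tested on simulated data, drawn without array groups and fitted without a block. Of simulated log2 changes of 0.5, 73% were recovered for Rb1 loss and 78% for p107 loss. For TKO against p107;p130 DKO 33% were recovered. At a log2 change of 1 the shares were 99%, 98% and 83%.

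Array groups came from average linkage clustering of probe set ratios of 2990 genes, member genes left out. Replicate numbers were checked for pairing: 67 same-number pairs had a median r of 0.07 (lowest -0.38), against -0.01 for other numbers. Of 30 arrays with a partner of the same number, 9 went best with such a partner. The main tests do not treat the numbers as pairs, and a weak pairing could be missed. Correlations used 100000 resamples, or all orders for 9 arrays. The members and lists were chosen with earlier results of these data known. Named genes were every probe set of the 10 members, called genes of the iron list, and the 3 genes most like each member. Cp, Heph and Bmpr1a were named for the list's smallest p-values, after these were seen. Alternatives are in the closing section, and those with k-means groups or with a second change beside the block were added after seeing the data.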

Additional observations from a re-analysis of the deposited data

Results flagged for a closer look

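Rb1;p107 DKO array 1 was far below the other 4 arrays of its genotype for 5 of the 8 iron genes, out of 32 gene and genotype groups examined. The gap to the nearest array, as a share of the range, was 0.737 for Tfrc (16888 against 22723 to 25262), 0.733 for Tfr2 (2195 against 3454 to 4074) and 0.846 for Slc25a37 (25112 against 35382 to 37656). It was 0.785 for Slc40a1 (3768 against 5307.5 to 5830.4) and 0.901 for Fth1 (37763 against 49260 to 50716), where 0.71 is the critical value for 5 arrays. Chance gives such a gap in about 1 in 20 groups. This array is the only one of its genotype in array group 1.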

How the results depend on the processing

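Of 167 recounts of called iron genes, 159 stayed at 0 and 8 reached 1. With the array group block 1 gene was called for Rb1 loss, for p107 loss and for Rb1;p130 DKO against p130 KO. With k-means array groups 1 was called for p107 loss and for Rb1;p130 DKO against p130 KO, and with every probe set on its own under the block 1 for each of the 3. Leaving out each array in turn kept every count without the block at 0. Values near 0 changed sign: Tfr2 with p107 loss was 0.01 and became -0.0821 with the mean of all probe sets, -0.194 with the array group block (gene by gene or with every probe set on its own) and -0.101 with k-means groups, and ran from -0.0238 to 0.0588 without single arrays. Slc25a37 with p107 loss was -0.0032 and became 0.0259 with array weights, 0.0112 with an Xist term and 0.0304 without Rb1;p130 DKO arrays 8 and 9, and ran from -0.0365 to 0.0231 without single arrays. With the replicate block 0 iron genes were called, and Tfr2 in Rb1;p130 DKO against p130 KO was -0.88 (limma adjusted p = 0.0892). The labels do not say that these numbers pair the samples. Signal near background limits Hamp, and groups of 1 to 3 arrays limit wild type, Rb1 KO, p107 KO and p130 KO.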
